A study of Homo sapiens with 9 samples.

Results

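Peaks around stop codons are described here, by RNA-binding protein (RBP) and by cell line. A peak belonged to this set when its centre lay in an exon of the canonical transcript of a coding gene, on the same strand, within 50 nt of the last base of the stop codon, counted along the spliced mRNA (GENCODE release 44, GRCh38). The merged lists of 54 libraries held 38371 such peaks among 2478204 peaks in all. Of these, 751 lay in histone genes, which number 97 and are described at the end. The other 37620 lay at 7108 stop codons of 19508 coding genes and made up 3.20% of the peaks on the mRNAs of these genes. Position alone chose the peaks, and no read number or fold entered the rule. Distances are counted from the last base of the stop codon, negative in the coding sequence (CDS) and positive in the 3′ untranslated region (3′ UTR).

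At the stop codon release factors free the finished protein and the ribosome leaves the mRNA, so that ribosomes travel over the bases before it and not, as a rule, over those after it. The 3′ UTR that begins there holds sites of many RBPs that act on the stability, the place and the translation of the mRNA. In most genes the stop codon lies in the last exon. The mRNAs of the replication-dependent histones carry no poly(A) tail and end in a stem-loop shortly after the stop codon, which the stem-loop binding protein SLBP holds.

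The libraries come from antibody-barcode eCLIP (ABC), in which cells are UV crosslinked and a DNA barcode on each antibody is joined, while still on the beads, to the RNA that its RBP holds. Singleplex ABC covered RBFOX2 in HEK293 cells, a line from human embryonic kidney, and SLBP in K562 cells, an erythroleukemia line, each with 2 replicates. In 10plex ABC the antibodies to DDX3, EIF3G, FAM120A, IGF2BP2, LIN28B, PRPF8, PUM2, RBFOX2, SF3B4 and ZC3H11A were used in 1 tube, with 3 replicates in K562 cells and 2 in HEK293 cells, and each barcode of a replicate is 1 library. No treatment separates the groups, and nothing in the sources says that replicates were separate cultures, so the spread between replicates may be technical. The p-values for RBPs do not measure that spread. The permutation tests of an RBP against the others rank it among the differences between the RBPs of a tube. The sign flips use 1 mean per RBP and so measure the spread over RBPs, which share tubes and may not be independent. The labels name the kidney line HEK293T and the study HEK293XT, and for 10plex HEK293 the titles give HEK293T where the cell line entry gives K562. Peaks on marker genes went with the titles: all 12 erythroid markers, among them the globins HBG1 and HBA1, had mRNA peaks in 10plex K562 and 0 did in 10plex HEK293, while all 8 kidney line markers, among them NEFM, had them in 10plex HEK293 and 0 in 10plex K562. Of the singleplex libraries, RBFOX2 had peaks on 5 of the 8 kidney line markers and SLBP on 3 of the 12 erythroid markers, and neither had any on the other list.

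Depth differed widely between barcodes. The reads in merged peaks ran from 13351 to 2176384 per library in 10plex K562, and the peaks around stop codons outside histone genes from 23 to 1406, with a median of 423.5. In 10plex HEK293 they ran from 49 to 2140 (median 898), in singleplex RBFOX2 from 1400 to 1556, and in singleplex SLBP they were 59 and 11. PUM2 had the fewest of the 10plex RBPs in both lines, with 23, 46 and 39 peaks in K562 and 49 and 94 in HEK293, and EIF3G followed, so shares of these RBPs rest on small numbers.

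Sites on which the results turn are shown first. The 5 genes with a PUM2 peak at the stop codon in all 3 K562 replicates all held, within 57 nt after the stop codon, the Pumilio recognition element TGTANATA, where N is any base. These genes are MKNK2, PDLIM4, RFC4, RPL19 and SRSF5. Each stretch is 30 bases of the GRCh38 reference on the strand of the mRNA, 5′ to 3′, with the element in capitals. The element begins 18 nt after the stop codon in MKNK2, 50 nt in PDLIM4, 27 nt in RFC4, 17 nt in RPL19 and 3 nt in SRSF5.
MKNK2, chr19:2039577-2039606, minus strand: catctcccctcTGTACATAggtcacccgtc
PDLIM4, chr5:132272268-132272297, plus strand: tgctcggccggTGTAAATAtgtttcaccct
RFC4, chr3:186789924-186789953, minus strand: atggggggtttTGTAAATAatgaagttgta
RPL19, chr17:39204654-39204683, plus strand: cccactttgtcTGTACATActggcctctgt
SRSF5, chr14:69771453-69771482, plus strand: ggcaattaaacTGTAAATAacttgccctgg

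For RBFOX2, whose element is GCATG, 2 of the 3 genes with the most reads in singleplex RBFOX2 peaks at the stop codon held the element within 100 nt of the stop codon, shown here in capitals. In ATXN2L it begins at -60 nt, in the CDS, and in SEPTIN6 a pair of elements begins 15 and 22 nt after the stop codon, of which the first is in capitals. The third gene, BICD2, had 0 matches within 100 nt. Of all 19508 stop codons, 14.96% held GCATG within 100 nt.
ATXN2L, chr16:28836193-28836222, plus strand: tgggggaatttgGCATGgaagagctgaggg
SEPTIN6, chrX:119625344-119625373, minus strand: ctgctgtttgctGCATGctgcatgagaccc

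The 3 histone mRNAs with the most SLBP reads are shown at their stem-loop, with its letters in capitals. They begin 28 nt after the stop codon in H1-2, 42 nt in H4C8 and 38 nt in H3C2.
H1-2, chr6:26055740-26055769, minus strand: aaacccaaaaGGCTCTTTTCAGAGCCacca
H4C8, chr6:26285126-26285155, minus strand: tcaaccaaaGGCCCTTTTCAGGGCCgccca
H3C2, chr6:26031590-26031619, minus strand: acccaaaGGCTCTTTTCAGAGCCacccact

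The stop codon itself is in capitals in the next stretches, which hold the 15 bases up to its end and the 15 after it. They are the sites with the highest reads of ZC3H11A and DDX3 relative to the other 9 RBPs of the pool. In HNRNPH1 the stretch is spliced, as exon 13 ends with the stop codon and the last exon, exon 14, follows after an intron.
HNRNPH1, chr5:179614945-179615560, minus strand: tcaaacattgcaTAGgtaaccaaggagcag
MIF, chr22:23895092-23895121, plus strand: tccaccttcgccTAAgagccgcagggaccc

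The first question was how much of the mRNA binding of each RBP fell around stop codons. ZC3H11A, a zinc finger protein of mRNA export complexes, and PUM2, a Pumilio repressor that binds 3′ UTRs, had the highest shares. For ZC3H11A, 5.77%, 5.62% and 7.21% of the mRNA peaks of the 3 K562 replicates lay around stop codons, a mean of 6.20% ± 0.877 (SD, n = 3) against 3.51% in the other 9 RBPs. For PUM2 the values were 6.37%, 5.37% and 6.63%, a mean of 6.12% ± 0.668 (SD, n = 3) against 3.51%. None of the 24 libraries of the other 8 RBPs reached these values, the highest being 4.25%. Both differences passed an exact two-sided permutation test of the RBP labels within replicates (adjusted p = 0.025 for each, with the Benjamini-Hochberg correction over 10 RBPs). The other 8 RBPs did not pass: IGF2BP2 had a mean share of 3.97%, LIN28B 3.75%, RBFOX2 3.66%, SF3B4 3.55%, PRPF8 2.88%, DDX3 2.702%, FAM120A 2.50% and EIF3G 2.42%.

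In HEK293 cells ZC3H11A again had the highest share, 6.43% and 5.71%, with no overlap with any other RBP, and PUM2 the next, 4.73% and 4.70%. With 2 replicates the exact permutation test cannot give a p below 0.01, or 0.1 after the correction over 10 RBPs, and it gave p = 0.01 for ZC3H11A (adjusted p = 0.1) and p = 0.08 for PUM2 (adjusted p = 0.4). ZC3H11A passed in K562 under every other way of counting tried on all 3 replicates, whereas PUM2 did not pass when each peak was weighed by its reads (5.59%, adjusted p = 0.21), when peaks outside mRNAs were counted too (2.83%, adjusted p = 0.44), with a window of 25 nt (2.35%, adjusted p = 0.257) or with stricter limits on the peaks (6.13%, adjusted p = 0.2), by the same exact permutation test. Counting enriched peaks alone hardly changed ZC3H11A replicates 1 and 3, so it adds little. There 100% of the peaks around stop codons and at least 99.5% of other mRNA peaks were enriched.

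**Figure D1:**
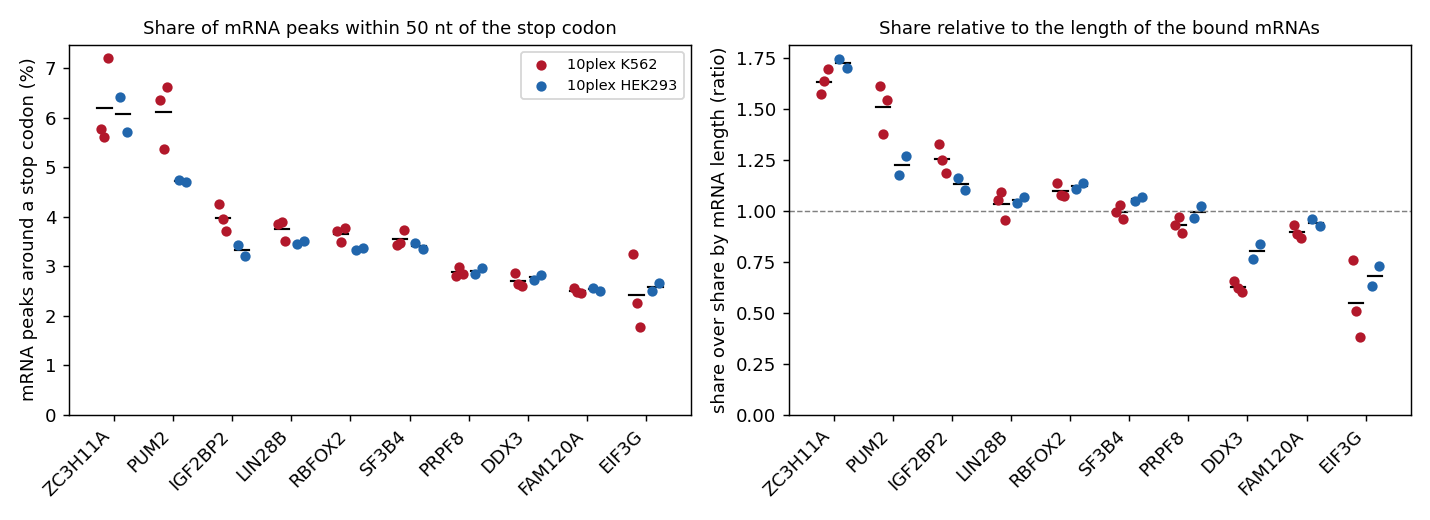
Left, the percentage of a library's mRNA peaks that lie around stop codons, for the 10 RBPs of 10plex ABC in K562 (red, 3 replicates) and HEK293 (blue, 2 replicates); right, the same share divided by the share that the window holds by the length of the mRNAs with peaks, where the dashed line marks equality. Each point is a library and each bar a mean. ZC3H11A lies between 5.62% and 7.21% in all 5 libraries, and its ratio between 1.57 and 1.75.

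Short mRNAs give the window a larger part of their length, so each share was also divided by the share that the window would hold if peaks fell evenly along the mRNAs of the library, a comparison added after seeing the data. The ratio for ZC3H11A lay between 1.57 and 1.75 in all 5 libraries, and for PUM2 between 1.38 and 1.61 in K562 and at 1.18 and 1.27 in HEK293. The translation initiation proteins lay at the other end. DDX3, an RNA helicase, had ratios of 0.657, 0.620 and 0.600 in K562, and EIF3G, a subunit of initiation factor eIF3, had 0.758, 0.508 and 0.382. In this comparison ZC3H11A (adjusted p = 0.02), PUM2 (adjusted p = 0.047) and EIF3G (adjusted p = 0.035) passed the exact permutation test in K562, and DDX3 did not (adjusted p = 0.055).

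The shares of the 2 cell lines overlapped for most RBPs. The mean difference of K562 minus HEK293 over the 10 RBPs was 0.261 percentage points ± 0.466 (SD over RBPs), which an exact sign flip over the RBPs did not call (p = 0.068). The libraries of the lines did not overlap for PUM2 (6.12% against 4.72%), IGF2BP2 (3.97% against 3.32%) and RBFOX2 (3.66% against 3.34%), and overlapped for the other 7. An exact permutation test of 3 against 2 libraries of a single RBP cannot reach 0.05, and no other test was run on these 3 differences. The exact sign flip called the mean difference over the 10 RBPs under other settings: it was 0.342 points without K562 replicate 2 (p = 0.0391), 0.642 points with a window of 100 nt (p = 0.0195), 1.14 points among enriched peaks (p = 0.0039) and 1.59 points with stricter limits on the peaks (p = 0.00195). The last 2 settings select peaks unlike in the 2 lines. Of the peaks around stop codons 48.0% were enriched in 10plex K562 and 16.6% in 10plex HEK293, beside 48.4% and 26.8% of all mRNA peaks. The part of this selection in the difference was not tested. RBFOX2 in HEK293 had 3.43% and 3.69% in singleplex and 3.32% and 3.36% in 10plex libraries, so that each singleplex library lay above both 10plex libraries, by a mean of 0.218 points. An exact permutation test of 2 against 2 libraries can give no p under 0.33, which is the value it gave.

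The second question was where around the stop codon the peaks lay. Among peaks within 50 nt, the share after the stop codon was highest for PUM2 in K562: 60.9%, 63.0% and 64.1%, above the highest value of any other RBP's library, 54.7%. The mean of 62.7% ± 1.65 (SD, n = 3) compared with 43.5% in the other 9 RBPs (exact permutation test, adjusted p = 0.01). With stricter limits on the peaks the PUM2 share was 63.2% and did not pass (exact permutation test, adjusted p = 0.05, which is not below the threshold). In HEK293 PUM2 had 38.8% and 40.4% after the stop codon, against 41.3% in the other RBPs, so the PUM2 libraries of the 2 lines did not overlap, a difference that was not tested. PRPF8, the core protein of the U5 particle of the spliceosome, had the lowest means, 33.6% in K562 (adjusted p = 0.075) and 32.3% in HEK293 (adjusted p = 0.1, exact permutation test), and EIF3G had 34.4% in K562 (adjusted p = 0.093) and 40.7% in HEK293; none of these passed. EIF3G in K562 did pass the exact permutation test with a window of 25 nt (34.5%, adjusted p = 0.02) and among enriched peaks (27.6%, adjusted p = 0.025). By the same exact permutation test it did not pass with a window of 100 nt (34.6%, adjusted p = 0.322) or stricter limits (28.5%, adjusted p = 0.115). Joined peaks did not pass either (34.1%, exact permutation test, adjusted p = 0.067).

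A comparison with the adjoining bases shows the slope across the stop codon. In K562, PRPF8 peaks were 1.46 ± 0.151 (log2, SD, n = 3) denser around the stop codon than in the next 100 nt of 3′ UTR and stood at -0.56 ± 0.020 relative to the previous 100 nt of CDS. SF3B4, a protein of the U2 particle that binds at the branch point, had log2 differences of 1.08 ± 0.051 against the UTR side and -0.50 ± 0.055 against the CDS side. The slope ran the other way for PUM2, with log2 differences of -0.65 ± 0.263 and 0.71 ± 0.144, for FAM120A with -0.51 ± 0.090 and 0.12 ± 0.071, and for IGF2BP2, which stabilises its target mRNAs, with -0.29 ± 0.072 and 0.21 ± 0.020. In HEK293 PRPF8 (1.58 and -0.65) and SF3B4 (1.29 and -0.44) kept these signs, and FAM120A did too (-0.28 and 0.03). PUM2 (0.35 and -0.16) and IGF2BP2 (0.10 and -0.16) had the opposite signs in HEK293.

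Taken against the mean of both flanks, the window of 50 nt was neither denser nor sparser than its surroundings over the 10 RBPs. The mean log2 difference was -0.03 ± 0.147 (SD over RBPs) in K562 (exact sign flip, p = 0.48) and 0.08 ± 0.126 in HEK293 (p = 0.062). A window of 25 nt gave another picture: the mean was -0.28 in K562 (exact sign flip, p = 0.002) and -0.22 in HEK293 (p = 0.002), where 0.002 is the smallest p that this test can give, and the mean of every RBP was below 0 in both lines. The count in HEK293 at 25 nt was added after seeing the data.

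Peak centres became fewer just before the stop codon, and in some RBPs they were fewer still just after it. Over the replicates of an RBP, the last 20 nt up to the stop codon held 0.385 to 0.794 times as many peak centres as the 20 nt before them, in all 20 pairs of RBP and line. The lowest ratio, that of PUM2 in K562, rested on only 13 and 5 centres. For ZC3H11A in K562 the numbers were 155 centres from 40 to 20 nt before the stop codon and 123 in the last 20 nt, the highest ratio. For FAM120A they were 547 and 390, for RBFOX2 372 and 232 and for PRPF8 435 and 276. IGF2BP2 had 454 and 304 before the stop codon and then 421 and 509 in the first and the next 20 nt of 3′ UTR, whereas PRPF8 went on to 215 and 198. A peak centre is the middle of a called interval and not a crosslinked base, and the median peak length per library was 35 to 46 nt in 10plex K562.

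**Figure D2:**
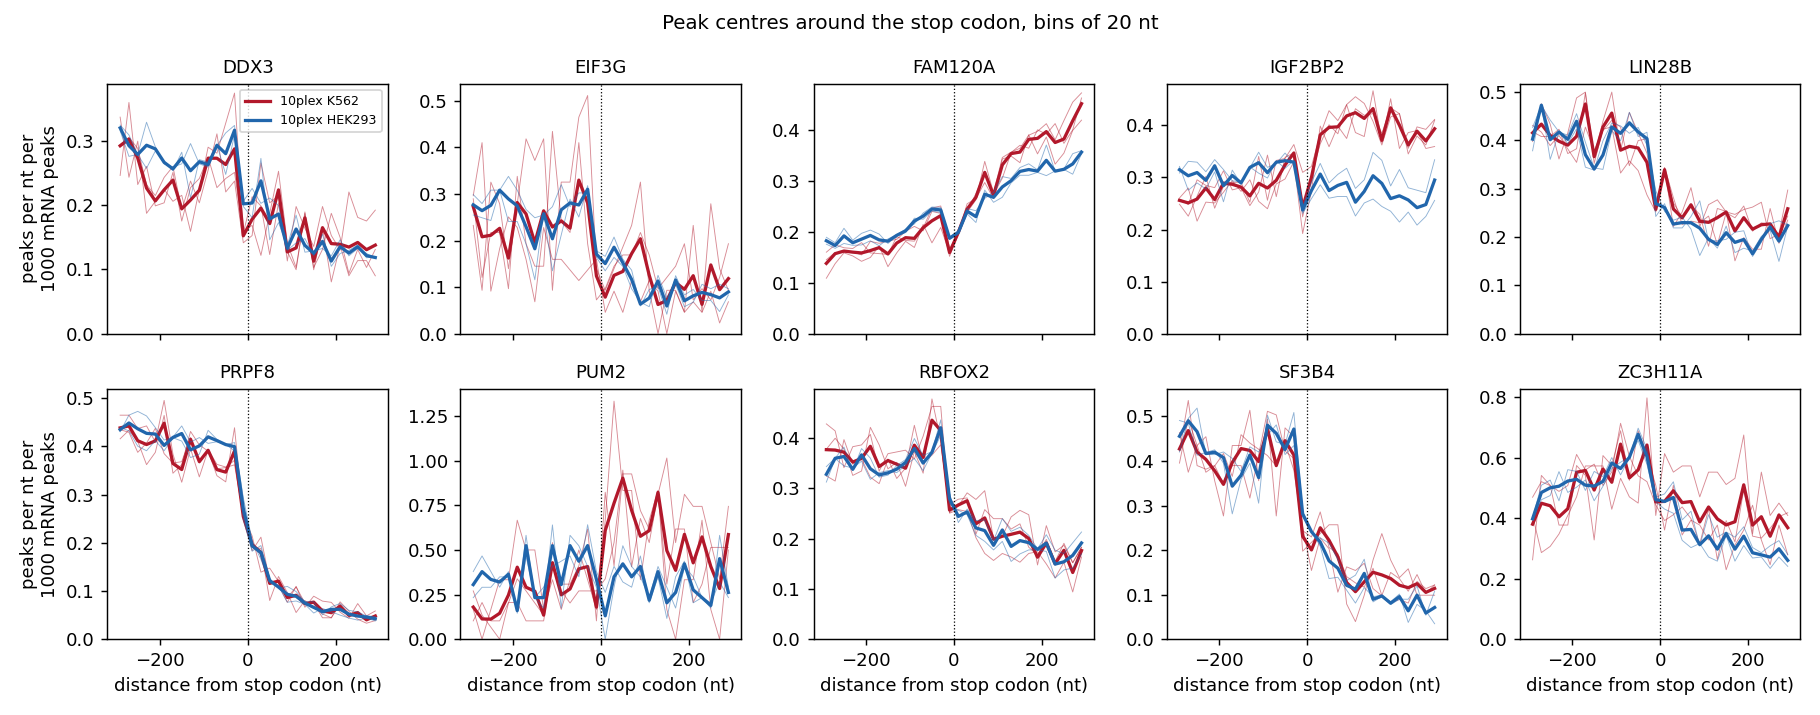
Peak centres per nt per 1000 mRNA peaks (y axis, a scale of its own in each panel) in bins of 20 nt from 300 nt before to 300 nt after the stop codon (x axis), for each RBP of 10plex ABC. Only peaks on mRNAs with at least 300 nt of CDS and 300 nt of 3′ UTR enter the counts and the 1000. Thin lines are replicates and thick lines their means, in K562 (red, n = 3) and HEK293 (blue, n = 2); in PRPF8 and SF3B4 the line falls across the stop codon, in FAM120A it rises, and the bin just before the stop codon is lower than the one before it in the mean of every RBP.

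The third question was whether peaks around stop codons carried the features their RBPs are known for. The PUM2 element TGTANATA was found in the mRNA sequence around 21.7%, 17.4% and 17.9% of the PUM2 peaks at K562 stop codons, a mean of 19.0% ± 2.37 (SD, n = 3) against 1.18% in the other 9 RBPs (exact permutation test, adjusted p = 0.004, corrected over 4 motifs). No library of another RBP had more than 2.38%. In HEK293 the share was 8.16% and 7.45% against 0.952% (exact permutation test, adjusted p = 0.02). Windows of the same length around all 19508 stop codons held the element in 0.969% of cases. Motifs were looked for on the strand of the mRNA alone, within 50 nt of the peak centre.

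RBFOX2 peaks held GCATG, the element of this splicing regulator, in 10.4%, 10.98% and 11.3% of cases in K562, a mean of 10.9% ± 0.460 (SD, n = 3) against 6.41% in the other 9 RBPs (exact permutation test, adjusted p = 0.032). Leaving out any 1 of the replicates ended this call, with adjusted p from 0.06 to 0.14. A single library of another RBP, EIF3G replicate 3 with 48 peaks, was higher at 12.5%. In HEK293 10plex libraries the shares were 12.8% and 11.2% against 6.76% (exact permutation test, adjusted p = 0.02), and in singleplex libraries 16.003% and 15.2%. Around all stop codons the share was 7.85%.

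For the other 2 motifs the difference from the other RBPs did not pass. GGAG, which LIN28B recognises in the precursors of let-7, was found around 56.5% ± 1.801 (SD, n = 3) of the LIN28B peaks against 50.6% in the other RBPs in K562 (exact permutation test, adjusted p = 0.149) and around 57.4% against 52.0% in HEK293 (adjusted p = 0.12). It passed in K562 with a window of 100 nt (59.3%, adjusted p = 0.0227), among enriched peaks (60.6%, adjusted p = 0.0347) and with stricter limits (64.7%, adjusted p = 0.0307), by the same exact permutation test. All stop codons held GGAG in 46.6% of windows. GGACT, a sequence at which N6-methyladenosine can form and for which IGF2BP2 is a known reader, was found around 10.5% of IGF2BP2 peaks against 10.4% (exact permutation test, adjusted p = 0.93) and lay in 11.9% of all stop codon windows. None of the 4 motifs contains another of them.

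In K562 the spliceosomal proteins had the highest mean shares of peaks near exon boundaries. Within 30 nt of an exon-exon boundary of the mRNA lay 29.8%, 26.04% and 28.6% of the SF3B4 peaks around K562 stop codons, a mean of 28.1% ± 1.90 (SD, n = 3) against 19.95% in the other RBPs (exact permutation test, adjusted p = 0.01). PRPF8 had 25.8%, 25.5% and 31.6%, a mean of 27.6% ± 3.44 (SD, n = 3) against 20.01% (exact permutation test, adjusted p = 0.011). Without replicate 2 neither passed (exact permutation test, adjusted p = 0.06 for each), and without replicate 3 PRPF8 did not (25.6%, adjusted p = 0.14). The libraries of the other 8 RBPs ran from 13.0% to 28.6% and overlapped with both. In HEK293 the means were 22.8% for SF3B4 and 24.8% for PRPF8, against 19.0% and 18.7%, and neither passed (exact permutation test, adjusted p = 0.22 and 0.06). The highest mean in HEK293 was that of PUM2, 25.0%, from few peaks, so the trait was not particular to the spliceosomal proteins there. An exon boundary lay within 50 nt of 13.5% of all stop codons, of 17.1% of those with a peak in K562 and of 16.2% of those with a peak in 10plex HEK293. These values count from the stop codon, per gene, and are no baseline for the shares above, which count 30 nt from the peak centre.

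**Figure D3:**
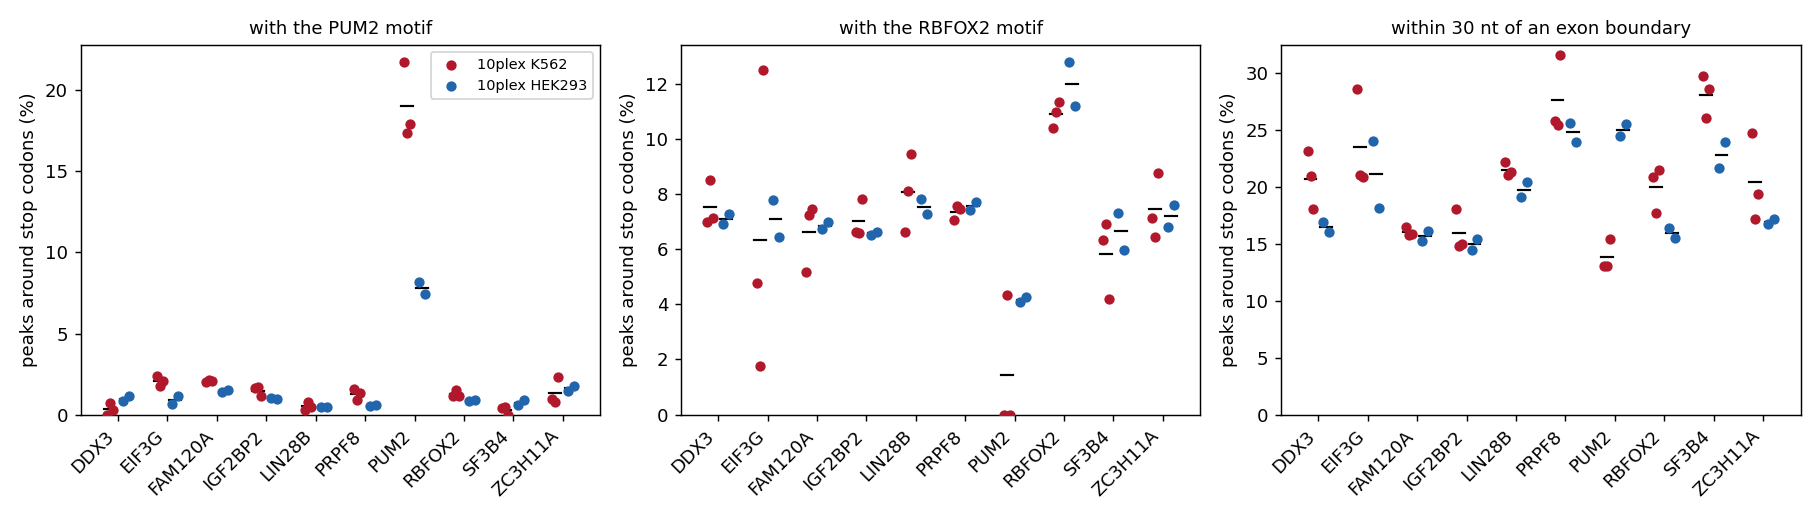
Percentage of a library's peaks around stop codons with TGTANATA (left) or GCATG (middle) within 50 nt of the peak centre, and with an exon boundary within 30 nt (right), for the 10 RBPs in K562 (red, 3 replicates) and HEK293 (blue, 2 replicates). Each point is a library and each bar a mean; PUM2 lies between 7.45% and 21.7% in the left panel, and every library of another RBP at or below 2.38%.

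The fourth question was how the peaks compared with the backgrounds. The study calls a peak enriched when its P is below 0.001 and its fold above 8. Over the external background, 6805 of 14174 peaks around stop codons were enriched in 10plex K562 (48.0%), beside 48.4% of all mRNA peaks. In 10plex HEK293 the count was 3392 of 20420 (16.6%), beside 26.8% of all mRNA peaks. The difference between stop codons and the rest of the same mRNAs, averaged over the 10 RBPs, was 0.427 percentage points in K562 (exact sign flip, p = 0.828) and -8.81 points in HEK293 (p = 0.01). In FAM120A the difference was below 0 in all 5 libraries, from -13.7 to -9.30 points in K562 and at -29.3 and -27.8 points in HEK293. DDX3 and PRPF8 also lay below 0 in every library of both lines, in K562 from -6.92 to -0.364 and from -2.43 to -0.906 points. It was above 0 in every K562 library of IGF2BP2, LIN28B, PUM2, RBFOX2 and ZC3H11A, and highest in RBFOX2, from 6.57 to 10.3 points. Of all mRNA peaks of an RBP in K562, 72.5% were enriched for DDX3, 57.0% for EIF3G, 50.4% for FAM120A, 28.0% for IGF2BP2, 42.4% for LIN28B, 60.4% for PRPF8, 99.3% for PUM2, 36.6% for RBFOX2, 53.3% for SF3B4 and 73.7% for ZC3H11A. In 10plex HEK293 the shares ran from 2.68% for RBFOX2 to 44.3% for PUM2, with 31.3% for LIN28B, 30.5% for ZC3H11A and 41.8% for FAM120A, and singleplex RBFOX2 had 3.49%. This background separated little in 7 K562 libraries of the 10plex, where at least 95.8% of the peaks around stop codons and at least 98.0% of those on the rest of the mRNA were enriched: all 3 of PUM2, ZC3H11A replicates 1 and 3, DDX3 replicate 1 and SF3B4 replicate 3.

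The complement control (CC) of the study sets the reads of an RBP at a peak against those of the other 9 barcodes of the same tube. Over the CC, 1367 of 13481 peaks around K562 stop codons were enriched (10.1%), beside 17.1% of all mRNA peaks with a CC value. Averaged over the 10 RBPs, the share at stop codons minus that on the rest of the mRNA was -7.41 percentage points (exact sign flip, p = 0.002, the smallest it can give), a test added after seeing the data. CC values were deposited for replicate 3 and solved for replicates 1 and 2. On the rest of the mRNA the enriched share of every RBP was lowest in replicate 3, for IGF2BP2 19.3%, 17.8% and 6.42% by replicate. The part of the source of the values in this was not tested. The gap differed between RBPs. In DDX3, 10.8%, 8.46% and 2.42% of the peaks around stop codons were enriched against 31.4%, 29.3% and 15.7% on the rest of the mRNA. In EIF3G the values were 26.5%, 15.1% and 4.35% against 44.4%, 43.1% and 30.8%, and in FAM120A 3.67%, 3.08% and 2.56% against 25.2%, 23.9% and 19.9%. For these 3 RBPs the replicates of the 2 regions did not overlap. In PRPF8 the values were 5.59%, 4.68% and 1.88% against 10.5%, 13.5% and 5.31%, lower at the stop codon in each of the 3 libraries.

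In other RBPs the share at the stop codon was nearer to that elsewhere on the mRNA. In LIN28B the values were 44.3%, 36.3% and 26.1% against 44.9%, 38.6% and 29.3%, and in PUM2 the means were 40.7% and 42.8%. The means were also close in ZC3H11A (19.1% and 20.3%), IGF2BP2 (14.2% and 14.5%) and SF3B4 (6.75% and 6.81%), and replicates overlapped in all of these. RBFOX2 had few enriched peaks in either region, 0.885% and 1.42%. Over all mRNA peaks pooled, enriched peaks made up 37.1% in LIN28B, 41.3% in PUM2, 22.1% in ZC3H11A, 12.5% in IGF2BP2, 22.9% in DDX3, 37.1% in EIF3G, 22.5% in FAM120A, 9.62% in PRPF8, 7.32% in SF3B4 and 1.42% in RBFOX2.

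**Figure D4:**
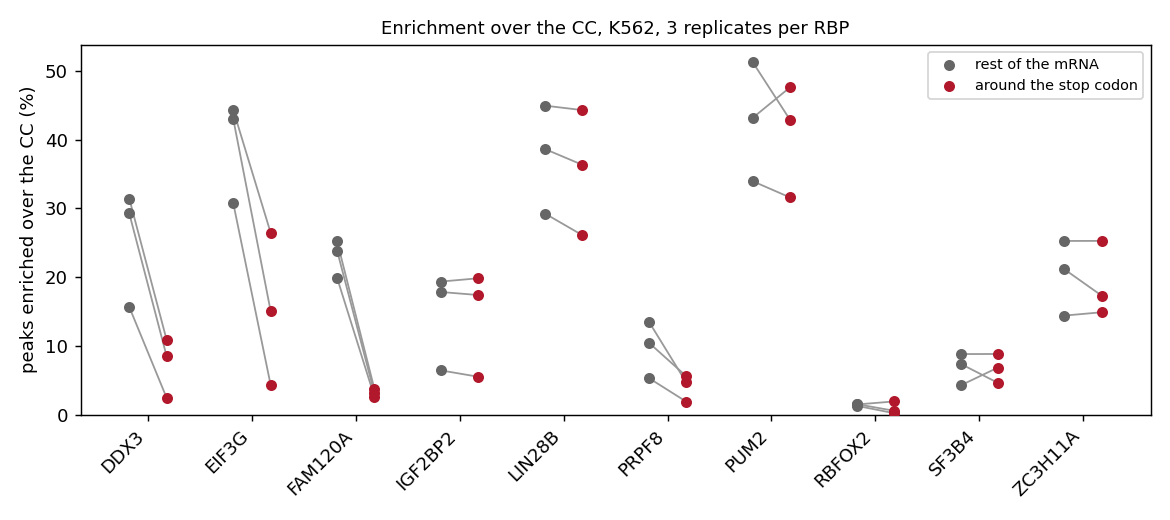
Percentage of peaks enriched over the CC (P below 0.001 and fold above 8) on the rest of the mRNA (grey) and around the stop codon (red), for the 10 RBPs in K562. A line joins the 2 values of 1 replicate (n = 3 per RBP); in DDX3, EIF3G and FAM120A all red points lie below all grey points.

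At the level of genes, 4168 stop codons had a peak in at least 1 of the 30 K562 libraries, 48.5% of them for a single RBP and 447 for 5 or more. In 10plex HEK293 5867 stop codons had one, and 3199 were found in both lines, which is 76.8% of the K562 and 54.5% of the HEK293 stop codons. Peaks recurred in only part of the replicates. The stop codons with a peak of the same RBP in all 3 K562 replicates numbered 241 for FAM120A, 203 for IGF2BP2, 142 for PRPF8, 140 for LIN28B, 124 for RBFOX2, 42 for ZC3H11A, 40 for DDX3, 29 for SF3B4 and 5 each for EIF3G and PUM2. In HEK293, where only 2 replicates had to share a gene, they ran from 22 for PUM2 to 799 for FAM120A. Of the 140 LIN28B genes in K562, 94 were among the 274 in HEK293 (67.1% and 34.3% of each list), and of the 142 PRPF8 genes 112 were among 730 (78.9% and 15.3%). For the other RBPs the overlap ran from 1 of 5 genes in PUM2 and 55.2% (16 of 29) in SF3B4 to 67.7% (84 of 124, RBFOX2) of the K562 list, and from 4.55% to 18.5% of the HEK293 list.

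LIN28B, which blocks the maturation of let-7, had a high signal relative to the other RBPs at RNF7, a RING subunit of cullin ubiquitin ligases. It held 593, 580 and 387 RPM (reads scaled by the library's total in merged peaks) in the 3 K562 replicates. The other 9 RBPs had no called peak there in replicates 2 and 3. RPM count only the reads of called peaks around a stop codon. A library without such a peak enters the means of other RBPs as 0, although it may have had reads there. In all, 46 genes had a LIN28B peak enriched over the CC at the stop codon in every K562 replicate. Of all mRNA peaks 37.1% were enriched over the CC in LIN28B, 7.32% in SF3B4 and 1.42% in RBFOX2, and in LIN28B the share at stop codons was below that elsewhere in each replicate. By the same count of genes IGF2BP2 had 8, FAM120A 3, PUM2 3, RBFOX2 1 and SF3B4 1, and DDX3, EIF3G, PRPF8 and ZC3H11A had 0.

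PUM2 peaks were made of few reads. On MKNK2, a kinase that phosphorylates the cap-binding factor eIF4E, each replicate held 11 reads, or 824, 612 and 648 RPM, against a mean of 16.9, 13.4 and 7.28 RPM in the other RBPs. On PDLIM4, a PDZ and LIM domain protein of the actin cytoskeleton, it held 4, 9 and 4 reads (300, 501 and 236 RPM). RFC4, a subunit of the clamp loader of DNA replication, had 4, 4 and 5 reads. These 3 genes were enriched over the CC in every replicate, with log2 folds from 3.55 to 5.14. The other 2 of the 5 genes were RPL19 of the large ribosomal subunit and SRSF5, a splicing factor of the SR family. They had PUM2 peaks of 2 to 7 reads and log2 folds up to 2.72 over the CC. Other RBPs had peaks at all 5 genes. Of the 9 other libraries of a replicate, 6 or 7 had one at RPL19 and 3 or 4 at SRSF5. The numbers were 2 to 4 at MKNK2, 1 to 5 at PDLIM4 and 2 or 3 at RFC4. RFC4, RPL19 and SRSF5 were named after their values had been seen. In 10plex HEK293 PUM2 had a peak at the stop codon of MKNK2 in 1 of 2 replicates and at PDLIM4 in 0.

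ZC3H11A had its highest signal relative to the other RBPs in K562 at HNRNPH1, which encodes a splicing factor of the hnRNP family. The 3 replicates held 349, 520 and 1039 RPM against 36.1, 36.4 and 33.9 RPM on average in the other RBPs, with log2 folds over the CC of 1.73, 2.57 and 3.82. All 3 values lay above the highest other RBP, 129 RPM, and the peaks were centred 17 to 20 nt after the stop codon, past the exon boundary shown above. At NBEAL2, a protein needed for the granules of platelets, it held 48.1, 189 and 92.8 RPM, from 4, 20 and 5 reads. Both genes also had ZC3H11A peaks at the stop codon in both HEK293 replicates, where 9 and 10 of the 10 RBPs had a peak at HNRNPH1 and 2 had one at NBEAL2.

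For IGF2BP2 the leading genes were PFN1, the actin-binding protein profilin, and ATP5MK, a subunit of the mitochondrial ATP synthase. At PFN1 the replicates held 695, 644 and 553 RPM against 15.6, 45.2 and 25.7 RPM in the other RBPs, all centred 40 or 41 nt after the stop codon. At ATP5MK, where the last exon begins 4 nt after the end of the stop codon, they held 74.3, 181 and 90.1 RPM against at most 0.767, and the log2 fold over the CC ran from 4.33 to 5.42. FAM120A led at PCNP, a nuclear protein, with 113, 129 and 59.5 RPM against 3.89 to 4.75, and at RSL1D1, a nucleolar protein of ribosome biogenesis, with 67.1, 61.1 and 66.8 RPM against at most 0.715.

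The leading genes of the splicing proteins and RBFOX2 had lower levels in K562. PRPF8 led at LUC7L3, a protein associated with the U1 particle, with 62.9, 39.7 and 44.4 RPM and no called peak in any other RBP. At PNISR it held 47.1, 65.5 and 64.6 RPM. SF3B4 led at CIRBP, the cold-inducible RNA-binding protein, with 110, 39.2 and 75.3 RPM, and at LENG8 with 40.3, 84.7 and 86.0 RPM. PRPF8 had peaks at both of its genes in both HEK293 replicates, but there 5 and 3 of the 10 RBPs had a peak at LUC7L3 and 6 and 7 at PNISR, whereas SF3B4 had none at CIRBP and 1 replicate with one at LENG8. RBFOX2 led at ATXN2L, a relative of ataxin-2, with 83.7, 112 and 76.7 RPM. At BICD2, an adaptor of the dynein motor, it held 25.7, 23.0 and 60.2 RPM, and no other RBP had a called peak. The singleplex RBFOX2 libraries from HEK293 held 162 and 106 RPM at ATXN2L, 81.5 and 82.4 RPM at SEPTIN6 and 66.8 and 74.1 RPM at BICD2, and 10plex HEK293 had RBFOX2 peaks at all 3 stop codons in both replicates. Counting RBFOX2, 4 and 3 of the 10 RBPs had a peak at ATXN2L in the 10plex HEK293 replicates, 1 and 4 at SEPTIN6 and 4 and 6 at BICD2. Of 590 genes in both singleplex replicates, 244 were among the 671 of 10plex HEK293 (41.4% and 36.4% of each list).

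The translation initiation proteins came last. DDX3 held 130, 122 and 166 RPM at MIF, a cytokine, against 9.84, 10.6 and 21.5 RPM in the other RBPs, and the log2 fold over the CC was 2.805, 2.81 and 3.05, below the 8-fold limit in replicates 1 and 2. At GPX4, which protects membrane lipids from oxidation, it held 56.8, 97.7 and 73.3 RPM, and another RBP reached 104 RPM. EIF3G had only 5 genes in all replicates. At STMN1, the microtubule regulator stathmin, it held 125, 153 and 132 RPM from 4, 7 and 6 reads, below the highest other RBP in replicates 2 and 3. At RPL35 its 157, 218 and 110 RPM were all far below the highest other RBP, which had 466 to 968 RPM, so neither stop codon was particular to EIF3G.

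The stop codons found in the most libraries were those of HBG1, RPL4 and HBG2. HBG1 and RPL4 had peaks in 29 of the 30 K562 libraries and HBG2 in 28, and PUM2 replicate 1 had no peak at any of them. HBG1 and HBG2, the fetal globins, are near-identical copies whose 30 bases around the stop codon are the same, so reads cannot be given to one of them with certainty. The levels per library ran from 21.6 to 834 RPM at HBG1, from 24.1 to 504 RPM at HBG2 and from 34.5 to 354 RPM at RPL4. RPL4 had peaks in all 20 libraries of 10plex HEK293, and HBG1 and HBG2 in 0.

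The gene groups differed in how often their stop codons had a peak. Among the genes with any mRNA peak in K562, 40.8% had one at the stop codon. The share was 94.1% for tRNA ligases (16 of 17 genes), 81.3% for hnRNP and SR proteins (26 of 32), 80.4% for proteasome subunits (37 of 46), 78.0% for the respiratory chain (78 of 100), 61.3% for ribosomal proteins (49 of 80) and 57.8% for translation factors (37 of 64). Zinc finger genes had the lowest share, 21.4% (65 of 304). Ribosomal protein genes were 49 of the 4168 genes with any K562 stop codon peak. Among the genes with a peak of 1 RBP in all replicates they made up from 6.22% for FAM120A (15 of 241) to 25.0% for DDX3 (10 of 40), with 2 of 5 genes for EIF3G and 12.8% for IGF2BP2 (26 of 203). The hnRNP and SR genes were 26 of the 4168, and 0 to 8 genes per RBP, with 8 of 140 for LIN28B (5.71%), 8 of 241 for FAM120A (3.32%) and 7 of 124 for RBFOX2 (5.65%). Levels of the mRNAs differ between these groups and their part was not tested.

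Most SLBP peaks around stop codons lay in histone genes. They numbered 87 and 75, 59.6% and 87.2% of all those it had, in 55 and 49 genes. They held 22.8% and 30.3% of the reads in the merged peaks of the libraries. In both replicates most of them lay after the stop codon (85.1% and 88.0%), with median distances of 30 and 33 nt, and 84 of 87 and 75 of 75 were enriched over the external background, beside 47.5% of the SLBP peaks on other mRNAs. That percentage pools 2 unlike replicates: away from stop codons 30.4% of the mRNA peaks were enriched in replicate 1 and 99.8% in replicate 2, so this background separated little in replicate 2. The letters of the stem-loop, which allow any base at a few places, were found after the stop codon in 68 of the 97 histone genes, at a median of 36 nt, and in 1 other coding gene. Of the 49 histone genes with SLBP peaks in both replicates, 48 had them. The levels were 42591 and 36462 RPM at H1-2, a linker histone, 17981 and 29899 RPM at H4C8, a histone H4 gene, and 13021 and 33181 RPM at H3C2, a histone H3 gene. Histone genes of 1 family are near copies of each other, so the split of reads among them is uncertain. Outside histone genes SLBP had 59 and 11 peaks around stop codons, and 0 genes were shared by the replicates.

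Among the 10plex libraries 1 stood apart at histone stop codons. IGF2BP2 replicate 1 in K562 had 47 peaks there, in 38 genes, where replicates 2 and 3 had 7 and 15 and the other 9 RBPs in K562 had 0 to 16. Its histone peaks held 0.651% of the reads in peaks, against 0.015% and 0.023% in replicates 2 and 3. They lay where those of SLBP did: 89.4% were after the stop codon, at a median of 33 nt. Of the 38 genes, 37 had SLBP peaks in both singleplex replicates and 36 held the stem-loop letters. The fewer histone peaks of replicates 2 and 3 also lay mostly there: 71.4% and 66.7% were after the stop codon, at medians of 35 and 30 nt. Of their genes, 6 of 7 and 12 of 15 had SLBP peaks in both singleplex replicates, and as many held the stem-loop letters. Of the 38 genes, 18 also had a peak in another library of replicate 1. In 10plex HEK293 IGF2BP2 had 17 and 23 histone peaks, 35.3% and 43.5% of them after the stop codon. Histone genes were left out of every share given above, and no source of the difference between the replicates was tested.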

How the data were processed

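Singleplex and 10plex ABC libraries were grouped by the titles in their labels. The RBP of each 10plex library was read from its deposited file. Before deposit the authors discarded reads of repeats, mapped what remained to GRCh38, collapsed PCR copies by molecular identifier and called peaks in each library with CLIPper (cutadapt 2.8 and STAR 2.7.6 in the submitters' processing notes). They deposited merged peaks with the −log10 P, capped at 400, and the log2 fold of the reads over an external background, which the methods give as RNA-seq without naming it library by library. The other 9 barcodes of a tube served as CC. Values against the CC, again −log10 P with log2 fold, were deposited for K562 replicate 3. For replicates 1 and 2 the CC reads were solved from their chi-squared statistic, which peaks in repeats lack; the CC of HEK293 was not used here.

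Reads per peak came from the deposited peak names, or were recovered as whole numbers behind the log2 fold; where both exist in K562, 92.2% to 98.6% were equal. They were not used for 10plex HEK293. Peak centres were placed on canonical transcripts of GENCODE release 44, where the authors used release 35. Shares of each RBP were compared with the other 9 by exact two-sided permutation of RBP labels within replicates, and means over RBPs by exact sign flips; the threshold was 0.05 with the Benjamini-Hochberg correction. The permutations run within replicates because the 10 libraries of a replicate share a tube. Density was taken on transcripts with 100 nt on both sides of the window, with 0.5 added to each count. Errors are SDs. Depth limits the number of peaks, and no reads outside peaks were used. Adapter-like sites were near 0.284% of the peaks around stop codons and 0.327% of other mRNA peaks.

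Named genes were, per RBP, the 2 with a peak in every K562 replicate and the highest mean log2 ratio of RPM (plus 10) to the mean of the other 9 (plus 10), the 3 in most K562 libraries, and the 3 with most reads in singleplex RBFOX2 and in SLBP histone genes; histone genes elsewhere and 1 chromosome were left out. One named gene is not reported here. The members, gene lists and named rules were chosen with earlier results of these data known. On simulated data 98.9% of centres were placed exactly and the rest on an overlapping transcript. Without a difference 5.17% of permutation tests and 4.40% of sign flips passed. A ZC3H11A share raised 1.25-fold was called in 69.5% of runs and one raised 1.5-fold in 99.0%. These runs gave all other RBPs 1 common share with counting noise alone, and the sign flips used independent values. The real RBPs differ more from each other and share tubes, so these rates need not hold for them. Alternatives were other windows, enriched or stricter peaks, joined peaks, other denominators, read weights, HEK293, no replicate block and left-out replicates; those over the CC, by mRNA length, at 25 nt in HEK293, and without adapter-like sites or mitochondrial mRNAs were added after seeing the data. Python 3.11.15, numpy 2.4.6, pandas 2.3.3 and scipy 1.17.1 were used.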

Additional observations from a re-analysis of the deposited data

Results flagged for a closer look

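In 5 of 46 comparisons of an RBP between the cell lines, every K562 library differed one way and every HEK293 library the other way; none of these differences between the lines was tested. The share of PUM2 peaks after the stop codon, minus that of the other 9 RBPs, was 18.3 to 20.9 points in K562 and -3.14 to -0.237 points in HEK293, a gap of 20.9 points between the means. The density of EIF3G peaks around the stop codon against its flanks was -0.62 to -0.05 on the log2 scale in K562 and 0.26 to 0.37 in HEK293, a gap of -0.60. The share of peaks enriched over the external background, at stop codons minus the rest of the mRNA, gave the other 3. For IGF2BP2 it was 4.97 to 8.80 points in K562 and -11.1 to -8.93 points in HEK293, a gap of 16.4 points. For LIN28B it was 4.58 to 7.78 points and -4.92 to -3.04 points, a gap of 10.2 points. For PUM2 it was 0.493 to 1.48 points and -13.6 to -10.1 points, a gap of 12.7 points, where 99.3% of all PUM2 mRNA peaks in K562 were enriched.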

How the results depend on the processing

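Causes of the changes given here were not tested. Settings in which the share of PUM2 did not pass are given with its shares above. A window of 25 nt moved the shares of LIN28B to 1.85% and PUM2 to 2.35%, the density against the flanks to -0.28 (to -0.22 in HEK293), the after-stop shares of DDX3 to 48.1%, EIF3G to 34.5% (now called) and ZC3H11A to 47.3%, the enriched difference to -1.16 points, and the median number of genes in all replicates to 20 in K562 and 107.5 in HEK293, from 83 and 306. A window of 100 nt gave a density of 0.10, after-stop shares of 40.7% for DDX3, 41.03% for LIN28B and 42.6% for ZC3H11A, a boundary share of 30.3% for SF3B4 (not called), GGAG around 59.3% of LIN28B peaks (called), a difference between the lines of 0.642 points (called), and medians of 188.5 and 620 genes. Enriched peaks alone gave shares of 4.26% for LIN28B and 4.41% for RBFOX2, an after-stop share of 27.6% for EIF3G (called), GGACT at 9.59% for IGF2BP2, GGAG at 60.6% for LIN28B (called), 1.14 points between the lines (called), -0.613 points for RBFOX2 singleplex minus 10plex, and a median of 61.5 genes in HEK293. With stricter limits (fold above 16) the shares were 4.74% for LIN28B, 6.13% for PUM2 (not called), 5.15% for RBFOX2 and 4.72% for SF3B4. The after-stop shares were 42.2% for LIN28B and 63.2% for PUM2 (not called). There GGACT stood at 9.81% and GGAG at 64.7% (called). The lines differed by 1.59 points (called), RBFOX2 by -0.701 points, and the medians were 35 and 25 genes.

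HEK293 in place of K562 gave shares of 3.32% for IGF2BP2, 4.72% for PUM2 and 6.07% for ZC3H11A, a density of 0.0841, after-stop shares of 39.7% for LIN28B and 39.6% for PUM2, boundary shares of 24.8% for PRPF8 and 22.8% for SF3B4, GGACT at 10.4% and an enriched difference of -8.81 points. The CC in place of the external background gave -7.41 points. Peaks weighed by reads gave shares of 1.33% for FAM120A (called), 5.26% for LIN28B, 5.59% for PUM2, 4.37% for RBFOX2 and 4.15% for SF3B4. With all merged peaks as denominator LIN28B had 3.00% and PUM2 2.83%, and among peaks enriched over the CC LIN28B had 3.60% and SF3B4 3.80%. Over the share by mRNA length the ratio was 0.549 for EIF3G (called) and 1.10 for RBFOX2, and joined peaks gave ZC3H11A 45.3% after the stop codon. Of the reversals of sign over all alternatives, only that of PUM2 after the stop codon in HEK293 concerned a difference that had passed its test.

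Without 1 replicate the share of ZC3H11A was 5.70% to 6.49%, of PUM2 5.87% to 6.50% and of LIN28B 3.68% to 3.87%; with 2 replicates left the smallest adjusted p over 10 RBPs is 0.1, so the calls of ZC3H11A and PUM2 could not pass. After-stop shares were 62.0% to 63.6% for PUM2, 44.2% to 50.4% for DDX3, 44.6% to 46.6% for LIN28B and 42.8% to 48.1% for ZC3H11A. Boundary shares were 25.6% to 28.7% for PRPF8 and 27.3% to 29.2% for SF3B4, GCATG 10.7% to 11.2% for RBFOX2, GGACT 10.1% to 10.9%, the density -0.0726 to 0.00276, the lines 0.206 to 0.342 points apart, and the median of genes 114.5 to 154. Without the replicate block, that is with RBP labels permuted over all K562 libraries, no call changed: ZC3H11A kept its share of 6.20% and PUM2 6.12% (exact permutation test, adjusted p = 0.0135 for each), and SF3B4 its boundary share of 28.1% (adjusted p = 0.00887). Leaving out adapter-like sites or mitochondrial mRNAs changed no call. PUM2 and EIF3G, with under 100 K562 peaks per library around stop codons, limit what could be seen for them.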

Other observations

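Stop codons with a peak of one RBP in all K562 replicates had other shares of stop codon types and other UTR lengths than the whole set of genes, here given as a description. TAA was the stop codon of 28.2% of all 19508 genes and of 28.3% of those with an mRNA peak in K562. It was that of 45.1% of the 142 PRPF8 genes, 44.4% of the 124 RBFOX2 genes, 40.7% of the 241 FAM120A genes and 32.1% of the 140 LIN28B genes. The 10 libraries of a replicate share 1 tube, and these shares carry no test. The median GC content of the window was 43.6% for the PRPF8 genes, 46.5% for the 29 SF3B4 genes and 50.5% for all genes. In HEK293 TAA made up 35.6% of the 730 PRPF8 genes and 32.6% of the 671 RBFOX2 genes. The 3′ UTR was shorter in these genes than in all genes with an mRNA peak in K562, where the median was 1335 nt: it was 669 nt for the 203 IGF2BP2 genes, 686 nt for LIN28B, 573 nt for the 42 ZC3H11A genes and 525.5 nt for the 40 DDX3 genes. Of all genes 95.4% had the stop codon in the last exon, and of the DDX3 genes 87.5%.

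Several genes with a LIN28B peak enriched over the CC at the stop codon in all 3 K562 replicates belong to other processes than RNA binding, among them the signalling GTPases NRAS and RHEB, the glycolytic enzyme GAPDH, the proteasome subunits PSMB7 and PSMC5 and the peroxiredoxin PRDX1. For IGF2BP2 the 8 genes of this kind were ATP5MK, DSG2, DYNLL1, MAPKAPK2, PTPN23, RNF167, TTC1 and YY1, and for FAM120A they were ACTR3, HNRNPUL2 and PCNP. These genes were chosen after their values had been seen.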
